A study of Mus musculus with 20 samples.

Results

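The 8 genes Sox17, Foxa1, Foxa2, Cdh1, Epcam, Krt8, Krt18 and Cldn6, which mark gut endoderm and epithelium, were followed by bulk RNA sequencing in mouse embryonic stem cell aggregates that form the posterior body axis. They were taken by gene symbol from 54446 listed genes, and expression was read as TPM (a level scaled for transcript length and for the total of each library). All 8 were among the 14290 genes with a mean of at least 1 TPM over the 15 libraries, and none was listed at 0 in any library.

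In the embryo, definitive endoderm leaves the primitive streak and forms the gut tube, an epithelial sheet. Sox17 is a transcription factor needed for definitive endoderm, and Foxa1 and Foxa2 are forkhead pioneer factors of the gut tube. Cdh1 (E-cadherin) and Epcam hold epithelial cells together, Krt8 and Krt18 pair into the intermediate filaments of simple epithelia, and Cldn6 is a tight junction claudin. None of the 8 is exclusive to the gut: Sox17 is also made in endothelium, Foxa1 and Foxa2 in notochord and floor plate, and Cdh1 and Epcam in pluripotent cells.

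All libraries came from the mouse stem cell line F1G4, which carries the reporters T::H2B-mCherry and Sox2::H2B-Venus, and all aggregates had received a pulse of 3 µM CHIR99021, a GSK3 inhibitor that activates WNT signalling, after 48 h. The group named 96h held precursors collected at 96 h, 10 pooled per library. The other groups were collected at 120 h, 6 pooled per library: Gastruloid was grown by the earlier protocol without Matrigel, TLSMG in Matrigel (a basement membrane extract), TLSMGC in Matrigel with CHIR, and TLSMGCL in Matrigel with CHIR and LDN, an inhibitor of BMP receptors. The doses of the later CHIR and LDN are not given in the sources used here. Each group had 3 libraries, described as biological replicates, and structures had been picked for an asymmetric pole, so a library is a pool of selected structures from 1 cell line. In pooled RNA, fewer cells of a type and less RNA per cell cannot be told apart.

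Read totals were not used here, since the tables hold scaled values. The deposited coverage per unit of FPKM, which tracks depth, ranged from 3.12 to 6.84 across the 15 libraries, and 13688 to 14494 genes reached 1 TPM. No 2 libraries were copies of each other. Within 96h, the replicate 1 library stood apart in Cer1, Gata6 and Gata4, which are genes of endoderm and of other tissues. Cer1, which encodes a secreted inhibitor, measured 404, 179 and 138 TPM in replicates 1 to 3. Gata6 measured 18.4, 6.84 and 5.86 TPM, and Gata4 6.84, 1.91 and 1.74 TPM. In the other groups, TLSMGC replicate 2 held the highest Sox17 of all libraries. Calls that change without either library are given with and without it.

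The transcription factors came first. Sox17 (ENSMUSG00000025902.13, mm10 chromosome 1, 4490931 to 4497354, minus strand) measured 5.25, 3.86 and 3.61 TPM in the 96h libraries and 1.47, 1.46 and 1.85 TPM in Gastruloid. In TLSMG it measured 8.11, 3.88 and 3.94 TPM, in TLSMGC 5.91, 13.9 and 2.48 TPM, and in TLSMGCL 1.51, 8.55 and 4.73 TPM. Gastruloid lay below all 96h libraries, while TLSMG, TLSMGC and TLSMGCL overlapped 96h and each other. The spread between replicates was widest in TLSMGC, where the SD of 5.87 TPM stood beside a mean of 7.43 TPM (n = 3), so the group means had little weight for this gene. Sox17 overlaps Gm37587 on the opposite strand, which stayed at or under 0.0779 TPM.

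Foxa1 (ENSMUSG00000035451.7, chromosome 12, 57540628 to 57546916, minus strand) measured 1.47, 1.01 and 0.941 TPM in 96h, 3.69, 3.97 and 4.82 TPM in Gastruloid and 5.78, 4.48 and 6.66 TPM in TLSMG. With CHIR it was near the level at 96 h. TLSMGC held 0.997, 1.69 and 0.597 TPM, and TLSMGCL 0.847, 1.38 and 0.994 TPM. The Gastruloid and TLSMG libraries overlapped each other and lay above every library of the remaining groups. Foxa1 thus fell into a high and a low set of groups, with none between them.

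The promoter of Foxa1 is shown because this gene moved most among the transcription factors. RefSeq promoters on build GRCm38.p6 were matched for 6 of the 8 genes, each a window of 300 bases from 250 before to 50 after a start site, and the 250 bases before the start are printed (chr12:57546112-57546361, minus strand, inside the gene's span as the annotation of the tables gives it). On both strands, 3 motifs were searched: the E-box CACCTG (on the other strand CAGGTG), which SNAI and ZEB factors bind, the forkhead motif GTAAACA (on the other strand TGTTTAC), and the TCF/LEF motif ATCAAAG (on the other strand CTTTGAT). Capitals mark the matches, a forkhead motif at -141 and an E-box at -23 relative to the start.
Foxa1: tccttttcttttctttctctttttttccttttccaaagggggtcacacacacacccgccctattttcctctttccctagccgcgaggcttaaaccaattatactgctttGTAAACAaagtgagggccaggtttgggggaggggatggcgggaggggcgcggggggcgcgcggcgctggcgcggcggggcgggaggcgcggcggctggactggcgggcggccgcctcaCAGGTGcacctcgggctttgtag
A match is only a description of letters: 20.2% of 32851 promoters of this length held the E-box, 3.65% the forkhead motif and 3.73% the TCF/LEF motif. No motif overlapped another. Of the other matched genes, Epcam and Cldn6 held 2 E-boxes each, Krt8 and Krt18 1 each, and Foxa2 a TCF/LEF motif in the third of its 3 windows.

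Foxa2 (ENSMUSG00000037025.11, chromosome 2, 148042877 to 148046969, minus strand) measured 8.27, 4.54 and 3.13 TPM in 96h and 4.42, 4.38 and 4.97 TPM in Gastruloid. In TLSMG it measured 5.08, 2.39 and 4.94 TPM, in TLSMGC 2.31, 4.33 and 1.55 TPM, and in TLSMGCL 2.24, 2.61 and 2.74 TPM. Every pair of neighbours in the order 96h, Gastruloid, TLSMG, TLSMGC, TLSMGCL overlapped, and the 96h replicate 1 library was the highest of all 15. The close relatives Foxa1 and Foxa2 therefore had unlike profiles over the same libraries.

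Of the adhesion genes, Cdh1 (ENSMUSG00000000303.12, chromosome 8, 106603351 to 106670246, plus strand) measured 35.5, 39.8 and 36.4 TPM in 96h. It was lower in all 120 h groups, with 11.3, 13.4 and 14.8 TPM in Gastruloid and 14.0, 9.36 and 10.8 TPM in TLSMG. The CHIR groups were lower still, with 8.38, 5.78 and 3.97 TPM in TLSMGC and 6.28, 7.00 and 7.05 TPM in TLSMGCL. The 5 groups formed 3 levels that did not overlap: 96h, then Gastruloid with TLSMG, then TLSMGCL with TLSMGC.

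Epcam (ENSMUSG00000045394.8, chromosome 17, 87635979 to 87651106, plus strand) measured 14.9, 17.8 and 16.1 TPM in 96h, 8.25, 13.2 and 15.3 TPM in Gastruloid and 16.8, 10.5 and 12.5 TPM in TLSMG. In TLSMGC the libraries held 9.61, 12.5 and 6.79 TPM, and in TLSMGCL 6.65, 9.54 and 9.75 TPM. Each neighbour in the order of the means overlapped the next, and only the CHIR groups lay below all 96h libraries. From its lowest to its highest library, Epcam spanned 6.65 to 17.8 TPM against 3.97 to 39.8 TPM for Cdh1.

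The keratins lie side by side on chromosome 15, Krt8 on the minus strand (ENSMUSG00000049382.10, 101996698 to 102004482) and Krt18 on the plus strand (ENSMUSG00000023043.7, 102028180 to 102032027), 23698 bases apart. Krt8 measured 32.3, 23.3 and 20.4 TPM in 96h, 27.1, 31.5 and 29.0 TPM in Gastruloid and 24.5, 16.3 and 20.6 TPM in TLSMG. It measured 7.55, 9.26 and 6.88 TPM in TLSMGC and 7.02, 9.37 and 9.28 TPM in TLSMGCL. All 6 libraries with CHIR lay below all 9 others. Krt8 overlaps the long noncoding RNA gene Gm36026 on the opposite strand, which stayed at or under 0.178 TPM.

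Krt18 measured 29.8, 18.8 and 15.6 TPM in 96h, 28.0, 36.9 and 32.2 TPM in Gastruloid and 31.6, 25.7 and 28.5 TPM in TLSMG. It measured 14.2, 15.1 and 9.93 TPM in TLSMGC and 13.0, 13.0 and 16.0 TPM in TLSMGCL. The CHIR groups lay below all Gastruloid and TLSMG libraries, and the highest TLSMGCL library overlapped the lowest 96h library. The promoters of this pair are shown because both genes were lower in the CHIR groups than in TLSMG: the 250 bases before the RefSeq start of Krt8 are chr15:102004343-102004592 on the minus strand, and those of Krt18 chr15:102027966-102028215 on the plus strand, GRCm38.p6, and both reach into the gene spans given above. Capitals mark the E-box, at -111 relative to the start of Krt8 and at -214 relative to that of Krt18, and neither window held the forkhead or TCF/LEF motif.
Krt8: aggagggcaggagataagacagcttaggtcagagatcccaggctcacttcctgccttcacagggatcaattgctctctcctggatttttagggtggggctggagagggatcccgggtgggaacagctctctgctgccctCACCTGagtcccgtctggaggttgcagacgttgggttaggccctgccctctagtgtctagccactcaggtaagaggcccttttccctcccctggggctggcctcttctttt
Krt18: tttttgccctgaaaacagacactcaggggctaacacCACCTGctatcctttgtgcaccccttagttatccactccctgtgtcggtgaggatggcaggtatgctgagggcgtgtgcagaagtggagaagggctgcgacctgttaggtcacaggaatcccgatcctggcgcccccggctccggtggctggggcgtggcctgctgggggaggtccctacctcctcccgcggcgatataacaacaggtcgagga

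Cldn6 (ENSMUSG00000023906.3, chromosome 17, 23679249 to 23682446, plus strand) measured 32.9, 22.8 and 18.9 TPM in 96h, 18.9, 26.0 and 26.5 TPM in Gastruloid and 28.3, 16.4 and 24.3 TPM in TLSMG. In TLSMGC it measured 14.4, 17.9 and 9.85 TPM, and in TLSMGCL 9.56, 13.9 and 11.2 TPM. The first 3 groups overlapped one another, and every TLSMGCL library was below all of theirs. TLSMGC replicate 2 reached into the TLSMG range.

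**Figure D1:**
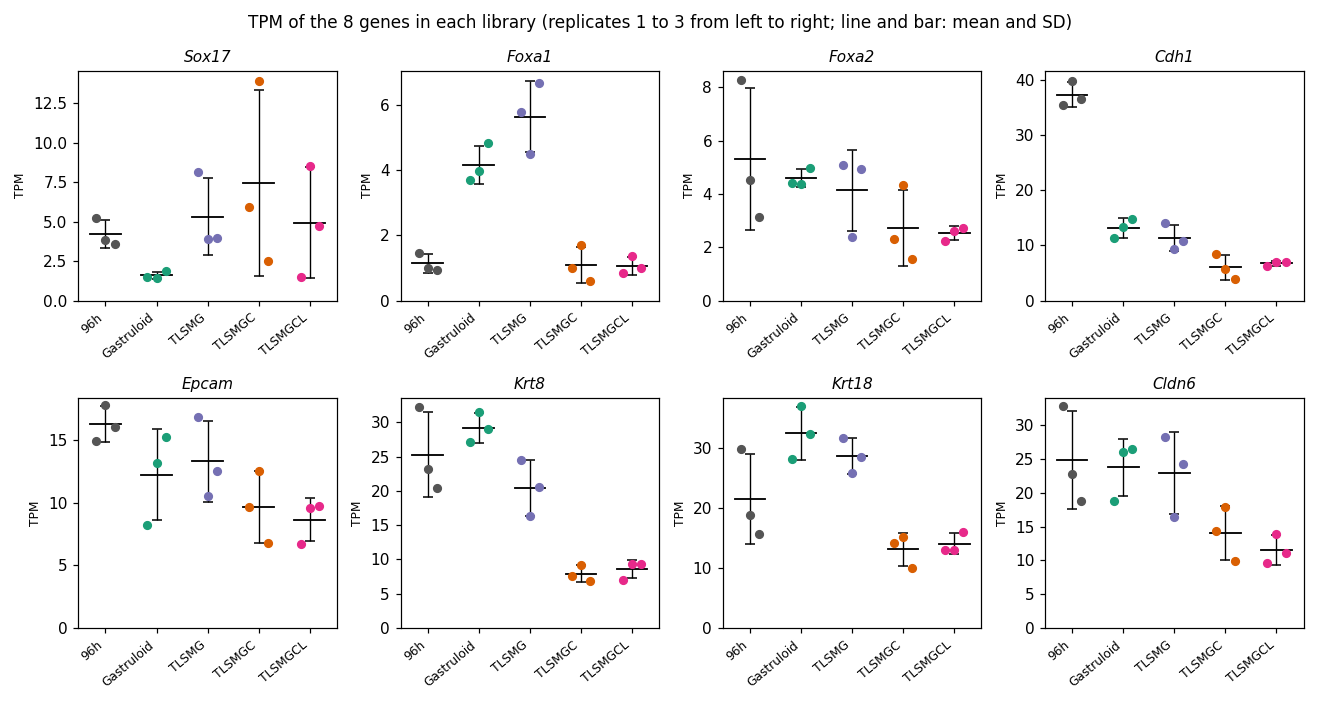
TPM (vertical axes, linear from 0) of each of the 8 genes in the 15 libraries by group, with 1 point per library and the mean and SD of 3 libraries as line and bar. Foxa1 was high only in Gastruloid and TLSMG (3.69 to 6.66 TPM), Cdh1 stepped down from 96h (35.5 to 39.8 TPM), and the CHIR libraries held at most 9.37 TPM of Krt8.

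Gastruloid against 96h showed what differed after the last day in plain medium. Foxa1 and Krt18 rose and Cdh1 fell, so the 8 genes did not move as a block. Foxa1 was 3.65-fold higher in mean TPM, a difference of 1.27 in log2(TPM + 1) with a standard error (SE) of 0.19 and an adjusted p of 0.00013 (limma over all 14290 genes, here and below with Benjamini-Hochberg adjustment and a threshold of 0.05). Cdh1 was 2.84-fold lower, a log2 difference of -1.44 (SE 0.19, adjusted p 4.59e-05). Krt18 was 1.51-fold higher, a log2 difference of 0.62 (SE 0.20, adjusted p 0.0262), although 1 of its 96h libraries lay among those of Gastruloid. Sox17 did not pass (95% interval -2.06 to 0.06, adjusted p 0.12) in spite of separate libraries, and Epcam, Krt8, Foxa2 and Cldn6 lay between -0.42 and 0.22 with overlapping libraries.

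That made 2 genes higher and 1 lower of 8, beside 41.2% of all tested genes called in this comparison, 20.8% higher and 20.5% lower. The libraries of 3 of the 8 did not overlap, against 56.8% of all genes. The median difference was -0.068 for the 8 genes and 0.0044 for all genes. Over all genes 2969 were higher and 2925 lower, and FPKM changed this to 3931 and 2371. The Krt18 call was lost in 7 of 14 alternatives, where its adjusted p ran from 0.0017 to 0.121: without a minimum TPM (0.0587), with only these groups in the fit (0.0655), with a GC and length correction (0.0961), without 96h replicate 2 (0.0841) or 3 (0.121), and without Gastruloid replicate 2 (0.0965) or 3 (0.0571). Sox17 passed when only these groups were fitted (0.00215, with a range of 0.00215 to 0.257 over its 13 alternatives).

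With Matrigel over the same time, TLSMG against 96h, Foxa1 again rose and Cdh1 again fell. Foxa1 was 4.95-fold higher (log2 difference 1.63, SE 0.19, adjusted p 1.28e-05) and Cdh1 3.28-fold lower (-1.64, SE 0.19, adjusted p 1.24e-05). Krt18 did not pass (0.45, 95% interval 0.01 to 0.88, adjusted p 0.0883), and the remaining 5 lay between -0.29 and 0.22. Both comparisons use the same 96h libraries, so their values are set side by side and not counted as 2 observations.

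Here 1 of 8 was higher and 1 lower, beside 46.0% of all genes called, 33.5% higher and 12.5% lower, and 2 had libraries that did not overlap, against 58.4% of all genes. The medians were -0.18 for the 8 genes and 0.14 for all genes. Median-of-ratios scaling moved the latter to -0.012 and gave 3194 higher and 3299 lower genes in place of 4792 and 1785, FPKM 3950 and 2457, and correcting for GC and length 3164 and 3287; the calls of Foxa1 and Cdh1 held under each. Without 96h replicate 1, Krt18 passed as higher (0.70, adjusted p 0.00587), in a range of 0.00587 to 0.337 over its 14 alternatives.

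Adding CHIR in Matrigel was tested by TLSMGC against TLSMG, and all calls were falls. Foxa1 was 5.15-fold lower (log2 difference -1.68, SE 0.19, adjusted p 1.39e-05), Krt8 2.59-fold lower (-1.26, SE 0.18, adjusted p 8.74e-05) and Krt18 2.18-fold lower (-1.09, SE 0.20, adjusted p 0.000865). Cdh1 was 1.88-fold lower (-0.84, SE 0.19, adjusted p 0.00323). Cldn6 passed narrowly at 1.64-fold lower (-0.68, SE 0.25, adjusted p 0.0443), with overlapping libraries. Epcam (-0.44, 95% interval -0.95 to 0.07), Foxa2 (-0.48, -1.14 to 0.18) and Sox17 (0.24, -0.82 to 1.30) did not pass.

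So 5 of 8 fell and 0 rose, beside 40.9% of all genes called, 10.4% higher and 30.5% lower. The libraries of 4 of the 8 did not overlap, against 52.4% of all genes, and the medians were -0.76 for the 8 genes and -0.16 for all. Median-of-ratios scaling brought the median of all genes to -0.011 and changed their split from 1490 higher and 4352 lower to 2621 and 2685; with FPKM it was 2195 and 3167, and corrected for GC and length 2689 and 2761. Foxa1, Krt8, Krt18 and Cdh1 passed under each of these. Cldn6 lost its call in 10 of 14 alternatives, with adjusted p from 0.0184 to 0.191, among them the 3 scalings just named (0.132, 0.093 and 0.0789 in that order) and the fits without TLSMG replicate 1 (0.156) or 3 (0.117) and without TLSMGC replicate 1 (0.0716) or 3 (0.191).

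With CHIR and LDN together, TLSMGCL against TLSMG, the same 5 genes passed as lower. Foxa1 was 5.26-fold lower (-1.67, SE 0.19, adjusted p 1.20e-05), Krt8 2.39-fold (-1.16, SE 0.18, adjusted p 0.000154) and Krt18 2.04-fold (-0.98, SE 0.20, adjusted p 0.00162). Cldn6 was 1.99-fold lower (-0.92, SE 0.25, adjusted p 0.00904), and Cdh1 1.68-fold lower (-0.65, SE 0.19, adjusted p 0.0132). Epcam did not pass (-0.56, 95% interval -1.07 to -0.05, adjusted p 0.0701), nor did Foxa2 (-0.49) or Sox17 (-0.23).

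These 5 falls and 0 rises stood beside 44.9% of all genes called, 9.31% higher and 35.6% lower, and 6 of the 8 had libraries that did not overlap, against 54.7%. The medians were -0.79 for the 8 genes and -0.18 for all genes. With median-of-ratios scaling the median of all genes was -0.0019 and the split 2734 higher and 2865 lower in place of 1330 and 5086, with FPKM 2154 and 3552, and with the GC and length correction 2686 and 2812. Cdh1 lost its call with median-of-ratios scaling (0.0633), with the GC and length correction (0.09) and without TLSMG replicate 1 (0.0598), in a range of 0.0119 to 0.09 over 14 alternatives. The TLSMG libraries are common to this and the preceding comparison.

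LDN on top of CHIR, TLSMGCL against TLSMGC, gave 0 calls in limma among the 8 genes, and 0 at an unadjusted p under 0.05. Differences ran from -0.46 for Sox17 (95% interval -1.52 to 0.60) to 0.19 for Cdh1 (-0.22 to 0.60). The intervals still allow differences of either sign, from -0.28 to 0.48 for Krt8, the narrowest, and to more than 1 log2 unit for Sox17. The background was low as well: 1.18% of all genes were called, 0.406% higher and 0.777% lower, and 0 of the 8 had libraries that did not overlap, against 15.8% of all genes. Over all genes 58 were higher and 111 lower, which became 103 and 99 under median-of-ratios scaling, 98 and 121 with FPKM, and 149 and 147 when corrected for GC and length. The medians were -0.0022 for the 8 genes and -0.039 for all.

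Matrigel alone at 120 h, TLSMG against Gastruloid, moved only Krt8 past the threshold, 1.43-fold lower (-0.51, SE 0.18, adjusted p 0.0347). Sox17 was 3.33-fold higher in mean TPM with libraries that did not overlap, and did not pass (1.22, 95% interval 0.16 to 2.28, adjusted p 0.0645). Foxa1 (0.36, -0.05 to 0.77), Cdh1 (-0.20, -0.61 to 0.21) and Epcam (0.13, -0.38 to 0.64) overlapped, as did Foxa2, Krt18 and Cldn6, between -0.17 and -0.066.

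The count was 0 higher and 1 lower of 8, beside 39.3% of all genes called, 31.5% higher and 7.87% lower, and 2 of the 8 had libraries apart, against 52.3% of all genes. The medians were -0.12 and 0.13. Median-of-ratios scaling took the latter to -0.019 and the split from 4497 higher and 1125 lower to 2763 and 2594, with FPKM it was 2710 and 2705, and corrected for GC and length 1858 and 1508; across all genes, the differences correlated with GC content at r = -0.41 (14283 genes, which are not independent replicates). The Krt8 call was lost in 8 of 14 alternatives, with adjusted p from 0.00971 to 0.149: with the GC and length correction (0.129), without a minimum TPM (0.078), with the replicate block (0.0502), without Gastruloid replicate 1 (0.054), 2 (0.104) or 3 (0.0683), and without TLSMG replicate 2 (0.149) or 3 (0.0715). Sox17 passed in 2 of 13 alternatives, with a pseudocount of 0.1 (0.0492) and with only these groups fitted (0.00757), in a range up to 0.204.

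Against the 96h precursors, the CHIR groups were lower in most epithelial genes. In TLSMGC, Cdh1 was 6.16-fold lower (-2.49, SE 0.19, adjusted p 3.00e-07) and Krt8 3.20-fold lower (-1.55, SE 0.18, adjusted p 1.24e-05). Cldn6 was 1.77-fold (-0.78, adjusted p 0.0230), Epcam 1.69-fold (-0.73, adjusted p 0.0250) and Krt18 1.64-fold lower (-0.64, adjusted p 0.0219). Foxa1, Foxa2 and Sox17 did not pass, at -0.054, -0.74 and 0.45.

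In this comparison 5 of 8 fell and 0 rose, beside 40.7% of all genes called, 20.6% higher and 20.1% lower, and the libraries of 5 did not overlap, against 52.3% of all genes. The medians were -0.74 for the 8 genes and 0.016 for all. The count dropped to 2, Cdh1 and Krt8, without TLSMGC replicate 3 (Epcam 0.109, Krt18 0.0965, Cldn6 0.102) and without a minimum TPM (0.0585, 0.0512 and 0.0553), and to 3 without 96h replicate 1 (Krt18 0.101, Cldn6 0.106). Epcam also lost its call without 96h replicate 2 (0.0775) or 3 (0.0554) and without TLSMGC replicate 1 (0.0527), and Krt18 with only these groups fitted (0.0792). Foxa2 passed as lower without 96h replicate 3 (-1.01, adjusted p 0.0242) and without TLSMGC replicate 2 (-1.04, 0.0186). Over all alternatives the adjusted p ran from 0.0119 to 0.109 for Epcam, 0.00677 to 0.101 for Krt18, 0.0136 to 0.106 for Cldn6 and 0.0186 to 0.284 for Foxa2.

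In TLSMGCL against 96h, Cdh1 was 5.50-fold lower (-2.30, SE 0.19, adjusted p 6.09e-07), Krt8 2.96-fold (-1.45, SE 0.18, adjusted p 2.35e-05), Cldn6 2.15-fold (-1.02, SE 0.25, adjusted p 0.00523) and Epcam 1.88-fold lower (-0.85, SE 0.24, adjusted p 0.0114). Krt18 did not pass (-0.53, 95% interval -0.97 to -0.10, adjusted p 0.0511), nor Foxa2 (-0.76, -1.42 to -0.10, adjusted p 0.0645), whose libraries did not overlap. The 4 falls and 0 rises of 8 stood beside 39.5% of all genes called, 17.4% higher and 22.1% lower, and 5 of the 8 had libraries apart, against 51.4%. The medians were -0.81 for the 8 genes and -0.023 for all. Epcam lost its call without TLSMGCL replicate 1 (0.0519, in a range of 0.00592 to 0.0519), and without 96h replicate 3 both Krt18 (-0.72, adjusted p 0.0152, range 0.0152 to 0.238) and Foxa2 (-1.02, 0.0236, range 0.0236 to 0.275) passed. All 4 comparisons against 96h share those 3 libraries.

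**Figure D2:**
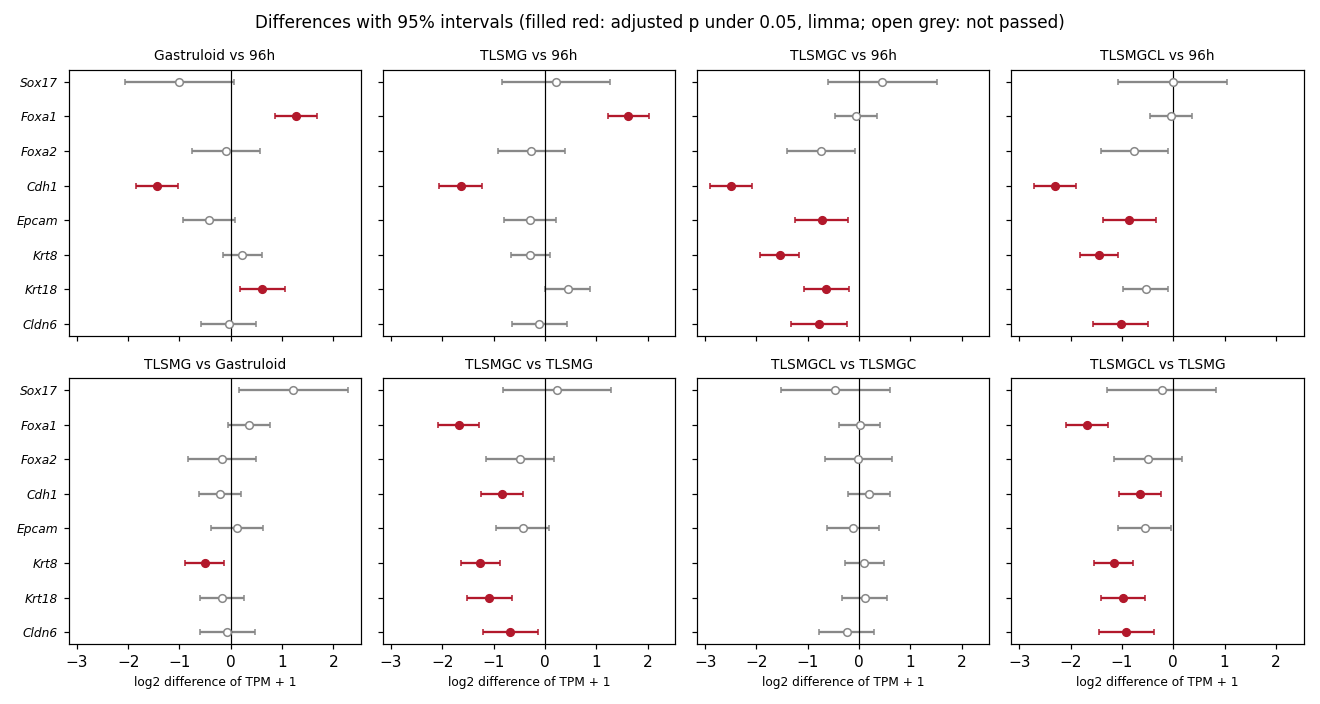
Differences in log2(TPM + 1) of the 8 genes in the 8 comparisons (horizontal axes, first group minus second), with 95% intervals from limma; filled red points passed an adjusted p of 0.05 and open grey points did not. Foxa1 passed as higher in Gastruloid and TLSMG against 96h (1.27 and 1.63) and as lower in both CHIR groups against TLSMG (-1.68 and -1.67), and none of the 8 passed between TLSMGCL and TLSMGC.

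Ratios of 2 genes within a library do not depend on how that library was scaled. The ratio of Krt8 to Krt18 was 1.08, 1.24 and 1.30 in the 96h libraries, 0.966, 0.853 and 0.902 in Gastruloid and 0.777, 0.635 and 0.722 in TLSMG. In the CHIR groups it averaged 0.612 ± 0.0804 (SD, n = 3) in TLSMGC and 0.613 ± 0.0943 in TLSMGCL. Krt8 thus exceeded Krt18 in all 96h libraries and in none of the 120 h libraries. The ratio lay apart between 96h and every 120 h group and between Gastruloid and TLSMG, and overlapped between TLSMG and the CHIR groups.

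Foxa1 to Foxa2 was 0.177, 0.223 and 0.301 in 96h, 0.837, 0.906 and 0.970 in Gastruloid and 1.14, 1.88 and 1.35 in TLSMG. It averaged 0.402 ± 0.0255 in TLSMGC and 0.423 ± 0.0910 in TLSMGCL (SD, n = 3). Foxa1 exceeded Foxa2 in the TLSMG libraries alone, and both CHIR groups still lay above all 96h libraries. Cdh1 to Epcam averaged 2.30 ± 0.0731 in 96h, 1.12 ± 0.217 in Gastruloid, 0.861 ± 0.0285 in TLSMG, 0.639 ± 0.211 in TLSMGC and 0.80 ± 0.125 in TLSMGCL.

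For these 3 ratios, 24 comparisons were made with a two-sided exact permutation test, which cannot go below 0.1 with 3 libraries against 3. The p was 0.1 in the 17 comparisons whose libraries did not overlap (0.141 after Benjamini-Hochberg adjustment), so none could pass a threshold of 0.05. These ratios were not computed for all gene pairs.

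**Figure D3:**
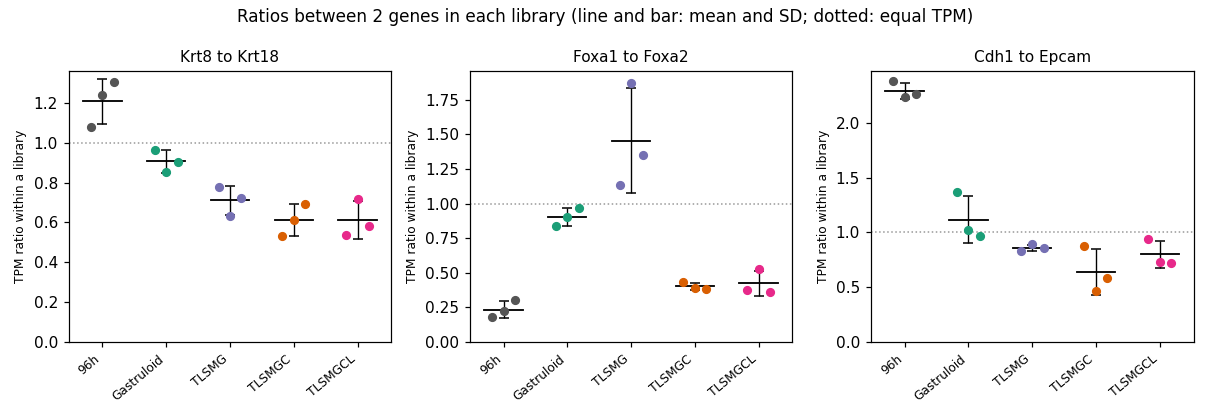
TPM ratio of 2 genes within a library (vertical axes, linear from 0), 1 point per library, by group, with mean and SD of 3 libraries and a dotted line at equal TPM. Krt8 to Krt18 fell from a mean of 1.21 in 96h to 0.612 in TLSMGC, Foxa1 to Foxa2 peaked in TLSMG at 1.45, and the mean of Cdh1 to Epcam was 2.30 in 96h and at most 1.12 in the 120 h groups.

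Other genes of the gut tube were read from a list of 27 regulators and regional genes, of which 13 were among the tested genes. Foxa3, Hnf4a, Nkx2-1, Nkx2-3, Onecut1, Pdx1 and Rfx6, which mark maturing gut, liver, lung, pancreas and intestine, stayed at group means under 1 TPM in all 5 groups. Against 96h, 2 rose and 9 fell in Gastruloid, 3 rose and 6 fell in TLSMG, 1 rose and 8 fell in TLSMGC, and 1 rose and 9 fell in TLSMGCL. Over all tested genes, 20.8% were called higher and 20.5% lower in Gastruloid, 33.5% and 12.5% in TLSMG, 20.6% and 20.1% in TLSMGC, and 17.4% and 22.1% in TLSMGCL. The list's median differences were -1.05, -0.54, -1.16 and -1.21 in that order, and under FPKM, median-of-ratios scaling and the GC and length correction 1 to 3 rose and 7 to 9 fell. Cer1 fell in all 4: its log2 difference from 96h was -3.12 in Gastruloid, -4.12 in TLSMG, -7.64 in TLSMGC and -7.31 in TLSMGCL (adjusted p at most 2.30e-06), and it measured at most 0.139 TPM in TLSMGC. Lhx1, a homeobox gene of anterior endoderm and intermediate mesoderm, fell against 96h (-3.70 in Gastruloid, -2.48 in TLSMG, -2.76 in TLSMGCL). Its mean was lower in TLSMGC as well, at 14.3 TPM against 48.5 TPM in 96h. Trh, which encodes thyrotropin-releasing hormone, fell too (-3.55 in TLSMG, -3.91 in TLSMGC, -3.15 in TLSMGCL). In Gastruloid the mean of Trh was also lower, at 59.4 TPM against 196 TPM in 96h. Gata6, an endoderm and cardiac factor, fell by 1.86 in TLSMGC against 96h. Its group means were 10.4 TPM in 96h, 1.45 TPM in Gastruloid and 4.40 TPM in TLSMG. With CHIR they were 2.04 TPM in TLSMGC and 0.61 TPM in TLSMGCL.

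Against TLSMG, 3 of the 13 rose and 5 fell in TLSMGC, and 2 rose and 7 fell in TLSMGCL, beside 10.4% of all genes higher and 30.5% lower in the former and 9.31% and 35.6% in the latter. Apela, a peptide hormone gene, had the pattern of Foxa1 with 31.0 to 43.3 TPM in Gastruloid, 21.3 to 23.5 TPM in TLSMG and at most 5.85 TPM in the other libraries, and fell by 2.62 on the log2 scale with CHIR (adjusted p 9.80e-08). Hhex, a homeobox gene of anterior endoderm and of endothelial precursors, was at 18.7 to 20.1 TPM in TLSMG and at most 5.71 TPM elsewhere. Cxcr4, a chemokine receptor of definitive endoderm and other cells, went the other way, from 12.2 to 18.9 TPM in TLSMG to 59.1 to 71.8 TPM in TLSMGC. Between TLSMG and Gastruloid 4 of the 13 rose and 4 fell, beside 31.5% and 7.87% of all genes, with Hhex (2.39) and Lhx1 (1.23) up and Trh (-1.86) down by the most. Between TLSMGCL and TLSMGC 0 rose and 1, Lhx1, fell (-1.06, adjusted p 0.00101), beside 0.406% and 0.777% of all genes.

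Junction genes followed Cdh1 in part. Of 19 tested junction partners and claudins, 0 rose and 11 fell in TLSMGC against TLSMG, and 0 rose and 12 fell in TLSMGCL against TLSMG. All tested genes were also called lower more often than higher there, 30.5% against 10.4% in TLSMGC and 35.6% against 9.31% in TLSMGCL, a skew that median-of-ratios scaling nearly removed. With that scaling 1 of the 19 rose and 11 fell in TLSMGC, and 1 rose and 8 fell in TLSMGCL. Jup (plakoglobin, which links cadherins to the cytoskeleton) fell from 25.7, 26.4 and 27.3 TPM in TLSMG to 10.4, 10.7 and 7.41 TPM in TLSMGC (-1.40, adjusted p 1.67e-06), and Llgl2, a polarity gene, fell by 0.92. Unlike Cdh1, Jup had risen between 96h and TLSMG (0.79, adjusted p 0.000172). Against 96h, 5 rose and 5 fell in Gastruloid, 4 rose and 3 fell in TLSMG, 0 rose and 10 fell in TLSMGC, and 0 rose and 7 fell in TLSMGCL, where the shares of all genes higher and lower were 20.8% and 20.5%, 33.5% and 12.5%, 20.6% and 20.1%, and 17.4% and 22.1% in that order. F11r (a tight junction adhesion receptor) and Lsr (of tricellular junctions) fell in all 4, F11r with differences of -0.82 to -1.87. Cldn4 and Cldn9, claudins like Cldn6, rose in Gastruloid (0.77 and 0.78). Cdh3 (P-cadherin) fell against TLSMG (-0.83 in TLSMGC, -0.96 in TLSMGCL). Between TLSMG and Gastruloid 5 rose and 2 fell, among them Tjp1 (0.55), Cldn3 (-0.82) and Cldn4 (-0.54), beside 31.5% and 7.87% of all genes; with median-of-ratios scaling 2 rose and 4 fell, and with FPKM 2 rose and 5 fell. None changed between TLSMGCL and TLSMGC.

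Among other keratins and desmosome genes, 7 of 12 were tested. Krt19, a further keratin of simple epithelia, measured 1.71 to 2.36 TPM in 96h. Gastruloid libraries held 9.12 to 13.2 TPM and TLSMG libraries 5.65 to 10.4 TPM, while TLSMGC (1.60 to 2.81 TPM) and TLSMGCL (1.13 to 2.19 TPM) were near 96h. It rose against 96h by 1.99 in Gastruloid and 1.43 in TLSMG, and fell with CHIR (-1.34, adjusted p 0.000297). Krt7 likewise rose in Gastruloid (1.17) and TLSMG (0.80) and fell in TLSMGC (-0.75). In TLSMGC against TLSMG, the desmosomal plaque gene Dsp rose (0.82, adjusted p 0.00126) where 5 of the 7 fell, Pkp2 (plakophilin) among them (-0.76). Dsp had fallen from 27.4 TPM in 96h to 10.5 TPM in TLSMG (-1.30, adjusted p 2.15e-05). At 19.6 TPM in TLSMGC it was also lower than in 96h (-0.49, adjusted p 0.0272). The desmosomal cadherin Dsg2 fell against 96h (-1.14 in Gastruloid, -1.34 in TLSMGC, -1.41 in TLSMGCL), and Dsc2 fell in TLSMGCL against TLSMG (-1.01). Perp, a desmosome-associated membrane gene, fell by 0.86 in TLSMGCL against 96h. Against 96h, 3 rose and 2 fell in Gastruloid, 3 rose and 3 fell in TLSMG, and 0 rose and 4 fell in each CHIR group. The shares of all genes higher and lower were 20.8% and 20.5% in Gastruloid, 33.5% and 12.5% in TLSMG, 20.6% and 20.1% in TLSMGC and 17.4% and 22.1% in TLSMGCL. Against TLSMG, the 1 rise and 5 falls in TLSMGC stood beside 10.4% and 30.5% of all genes, and 1 rise and 4 falls in TLSMGCL beside 9.31% and 35.6%. TLSMG against Gastruloid gave 1 rise (Dsc2, 0.38) and 0 falls, which became 0 rises and 2 to 4 falls under FPKM, median-of-ratios scaling and the GC and length correction, and TLSMGCL against TLSMGC gave none.

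**Figure D4:**
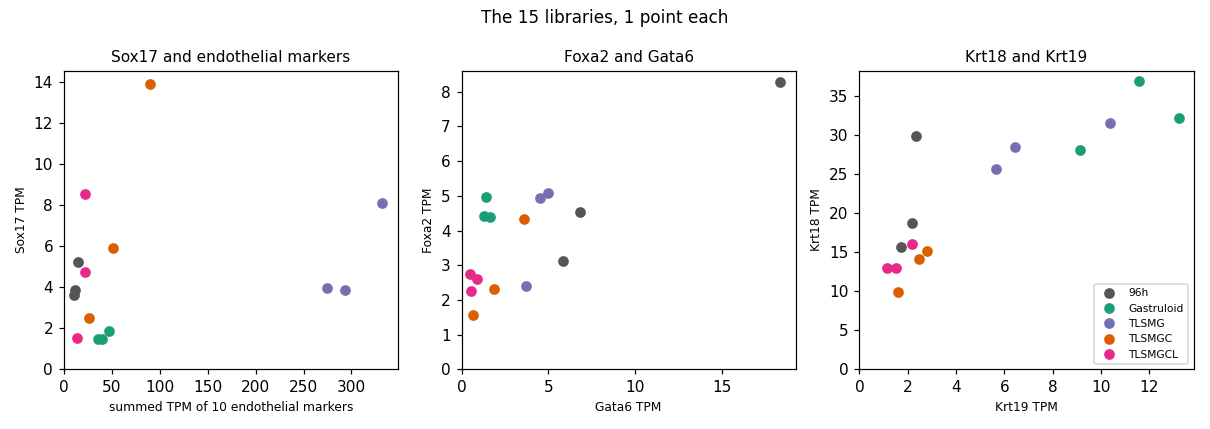
Levels in the 15 libraries, 1 point per library and coloured by group, all axes linear in TPM. Left, Sox17 against the summed TPM of 10 endothelial markers; middle, Foxa2 against Gata6, where 96h replicate 1 lies apart at 8.27 and 18.4 TPM; right, Krt18 against Krt19, where all Gastruloid and TLSMG libraries hold at least 5.65 TPM of Krt19 and all others at most 2.81 TPM.

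Of 16 epithelial regulators and proteases, 11 were tested, and 0 rose in any comparison. Against 96h, 6 fell in Gastruloid, 5 in TLSMG and 10 in each CHIR group; against TLSMG, 6 fell in TLSMGC and 4 in TLSMGCL. Of all tested genes, 20.5% were called lower in Gastruloid, 12.5% in TLSMG, 20.1% in TLSMGC and 22.1% in TLSMGCL against 96h, and 30.5% in TLSMGC and 35.6% in TLSMGCL against TLSMG. The 4 of 11 in TLSMGCL against TLSMG were thus near the share of all genes, and median-of-ratios scaling left 4 lower in TLSMGC and 3 in TLSMGCL. Against 96h, 10 stayed called lower in each CHIR group under FPKM, median-of-ratios scaling and the GC and length correction. Spint1 and St14, a membrane protease inhibitor and its protease, were, like Cdh1, highest in 96h: Spint1 measured 8.88, 13.8 and 12.9 TPM in 96h and 2.56 to 5.69 TPM in the 120 h libraries. Esrp1, an epithelial splicing factor, fell with CHIR (-0.996, adjusted p 0.00114) to 1.39, 1.90 and 0.898 TPM in TLSMGC. Prss8, another membrane protease (-0.93), and Grhl3, an epithelial transcription factor (-0.82), fell with it. Klf4, a pluripotency and epithelial factor, fell against 96h (-1.39 in Gastruloid, -1.57 in TLSMG), and Klf5 fell in TLSMGCL (-1.72). None passed between TLSMG and Gastruloid, where 2 or 3 were lower under those scalings, or between TLSMGCL and TLSMGC.

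Known repressors of Cdh1 and mesenchymal genes, 8 in all and all tested, did not move as a set. Snai1, which represses Cdh1 in embryonic mesoderm, measured 113, 117 and 121 TPM in 96h and 13.8 to 33.3 TPM in the 120 h libraries. Whether any of these genes acted on Cdh1 in these cells was not tested. Snai2 rose against 96h in all 120 h groups, by 2.91 in TLSMG, 2.05 in TLSMGC, 1.55 in TLSMGCL and 1.09 in Gastruloid. Cdh11, a mesenchymal cadherin, rose by 2.91 in Gastruloid and 2.92 in TLSMG and fell with CHIR (-1.59). Zeb2, another Cdh1 repressor, fell against 96h (-1.12 in Gastruloid, -1.42 in TLSMGC), and Vim (vimentin) rose by 0.86 in TLSMG against Gastruloid and fell by 0.83 in TLSMGCL against TLSMG. Against 96h, 3 rose and 3 fell in Gastruloid, 5 rose and 1 fell in TLSMG, and 5 rose and 2 fell in each CHIR group; 3 rose and 0 fell in TLSMG against Gastruloid, 1 rose and 4 fell in each CHIR group against TLSMG, and none passed between the CHIR groups. With 8 genes, these counts are set beside 20.8% of all genes higher and 20.5% lower in Gastruloid against 96h, 33.5% and 12.5% in TLSMG, 20.6% and 20.1% in TLSMGC and 17.4% and 22.1% in TLSMGCL, and beside 31.5% and 7.87% in TLSMG against Gastruloid and 10.4% and 30.5% in TLSMGC and 9.31% and 35.6% in TLSMGCL against TLSMG. In TLSMG against 96h, median-of-ratios scaling gave 3 rises and 2 falls. FPKM and the GC and length correction each gave 5 rises and 2 falls there, and 4 rises and 2 falls in Gastruloid against 96h. Against TLSMG, 1 or 2 rose and 3 fell in each CHIR group under these 3 scalings.

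Markers of other cell types moved with some of these results. In 96h, 10 endothelial markers summed to 10.5 to 15.0 TPM. Gastruloid held 35.8 to 46.6 TPM of them and TLSMG 274 to 332 TPM, against 51.7, 90.02 and 26.5 TPM in the TLSMGC libraries and 13.5 to 22.2 TPM with LDN added (TLSMGCL). The highest Sox17 library of 96h (replicate 1), Gastruloid (replicate 3), TLSMG (replicate 1) and TLSMGC (replicate 2) also had the highest endothelial sum of its group. Cdh5, a defining endothelial gene, measured 40.0 TPM in that library of TLSMG and 15.3 TPM in that of TLSMGC. In TLSMGCL replicate 2, Sox17 was at 8.55 TPM with an endothelial sum of 22.2 TPM, the same as replicate 3 at 4.73 TPM. TLSMGCL replicate 1 was the lowest of its group in both, with Sox17 at 1.51 TPM and a sum of 13.5 TPM. Between groups, mean Sox17 did not rank as the endothelial sums did. It was 4.24 TPM in 96h, 1.59 TPM in Gastruloid, 5.31 TPM in TLSMG, 7.43 TPM in TLSMGC and 4.93 TPM in TLSMGCL. The part of endothelial RNA in the Sox17 values was not tested.

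Pluripotency markers (8 genes) summed to 173 to 299 TPM in 96h and 244 to 398 TPM in Gastruloid. TLSMG had 116 to 150 TPM, TLSMGC 36.0 to 70.6 TPM and TLSMGCL 62.7 to 82.6 TPM. They were thus lower with CHIR, as Cdh1, Krt8 and Cldn6 were, while Epcam passed as lower with CHIR only against 96h. All 8 markers fell in both CHIR groups against 96h, and 7 in TLSMGCL with the GC and length correction. Of all genes, 20.1% fell in TLSMGC and 22.1% in TLSMGCL. In TLSMG against Gastruloid, 6 of the 8 markers fell and 0 rose, beside 7.87% and 31.5% of all genes. Of Cdh1, Krt8 and Cldn6, only Krt8 passed there, a call lost in 8 of 14 alternatives. Within 96h, replicate 1 had the lowest pluripotency sum. It also had the lowest Cdh1 and Epcam, but the highest Krt8, Krt18 and Cldn6. Germ cell markers summed to 17.3 to 27.7, 26.6 to 37.4, 20.6 to 26.3, 5.55 to 8.32 and 6.92 to 12.1 TPM in the same order of groups. What these cells contribute to the epithelial genes was not tested.

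Visceral and yolk sac endoderm markers summed to at most 2.52 TPM in any library, and 7 of the 8, Afp and Ttr among them, stayed under 0.5 TPM in every library. Notochord and floor plate markers other than Foxa1 and Foxa2 summed to 80.5 to 138 TPM in 96h. Gastruloid had 17.3 to 26.4 TPM, TLSMG 23.5 to 28.0 TPM, TLSMGC 53.6 to 57.2 TPM and TLSMGCL 38.2 to 40.4 TPM; T made up most of each sum, and Noto, the defining notochord gene, was at most 0.447 TPM. Surface ectoderm markers summed to 47.2 to 83.5 TPM in the CHIR groups against 8.77 to 22.6 TPM elsewhere, nearly all of it Wnt6 in the former, with Krt14 listed at 0 throughout and Trp63 at most 0.183 TPM. Nephric and intermediate mesoderm markers, another CDH1-bearing epithelium once formed, summed to 70.5 to 84.4, 18.8 to 19.3, 32.6 to 42.5, 45.0 to 59.1 and 35.5 to 40.0 TPM in the same order. In 96h, most of that sum was Lhx1 (46.5 to 52.2 TPM), which also stands in the gut tube list. The part of all these markers in the results was not tested.

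The genes with the most similar profiles were found for the 6 members that passed in some comparison, as the smallest root mean square (RMS) difference of centred log2(TPM + 1) over the 15 libraries, among genes with a mean of at least 5 TPM and leaving out the 8 themselves. For Foxa1 these were Plk2 (0.20), Tshz2 (0.24) and Foxo1 (0.25), against 0.76 for the variation of Foxa1 itself. Plk2, a kinase gene, had group means of 10.9, 23.9, 43.5, 10.1 and 9.94 TPM from 96h to TLSMGCL. For Krt18 they were Meox1 (0.20), Cdh4 (0.20) and Slc43a2 (0.23). Meox1 is a homeobox gene of somites, and its means were 393, 566, 543, 229 and 279 TPM.

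For Krt8 the nearest were Prnp (0.21), Tcf7l1 (0.23) and Sgk1 (0.24), and for Cdh1 Tuft1 (0.28), S100a11 (0.31) and Ina (0.31). Tcf7l1, a repressor of WNT targets, averaged 81.8, 78.8, 73.6, 26.8 and 28.3 TPM. For Epcam, Vangl1, AC166058.1 and Etv5 came at 0.24 each, against 0.41 for its own variation, and for Cldn6 Msrb2 (0.27), Tpm2 (0.28) and Ssbp3 (0.28), against 0.51. Among the 8 genes themselves the closest pair was Foxa2 and Cldn6 (0.21), closer than Krt8 and Krt18 (0.37). The measure is not scaled to a gene's own variation, so genes that vary little can lie close whatever their profiles. That variation was 0.77 for Krt8, 0.55 for Krt18 and 0.51 for Cldn6. These distances describe 15 libraries in 5 groups and carry no test.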

How the data were processed

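Poly(A) RNA of 15 bulk libraries (5 groups of 3) was sequenced as stranded 75 bp paired-end reads, per the labels' protocols. The submitters' processing notes name cutadapt 2.4, STAR 2.7.3a, StringTie 2.0 and the build mm10; the annotation release is not given in the sources used here, and 54409 of 54446 gene identifiers matched GENCODE M21. The authors deposited TPM, FPKM and read coverage per gene; TPM was used, FPKM served as an alternative, and the deposited coverage signal only to compare depth. No read counts were used. Single-cell samples of the series were not analysed here.

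Rows of 1 gene identifier were summed. Genes with a mean of at least 1 TPM over the 15 libraries (14290) were tested as log2(TPM + 1) with limma 3.58.1 in R 4.3.3 (trend, Benjamini-Hochberg over all tested genes, threshold 0.05, two-sided), with 1 fit to all 5 groups. A fold change on this scale understates changes of low genes; ratios of mean TPM are given beside it. Ratios between genes were compared with exact permutation tests (scipy 1.17.1). The fitting code was tested on simulated data. Alternatives were a pseudocount of 0.1, a minimum of 5 TPM or none, FPKM, median-of-ratios scaling, only the compared groups, a GC and length correction, the replicate number as a block, and leaving out each library.

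The 8 genes and the lists were chosen with earlier results of these data known. Named were all 8 genes. From each list, at most 3 called genes per comparison with the largest differences were named. Some list genes (Cxcr4, Gata4, and Krt7, Jup, Snai2, Gata6, Lhx1 and Trh in further comparisons, and marker genes) were named further after their values were seen. The 3 most similar genes (mean TPM of at least 5) were named for each of the 8 that passed anywhere. The p-values measure the spread between pools of 1 cell line.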

Additional observations from a re-analysis of the deposited data

How the results depend on the processing

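Of 25 calls among the 8 genes, 17 kept direction and call in every alternative, and 8 lost the call in some. The number of genes called, 2 in TLSMG against 96h, was 1 with a minimum of 5 TPM, which removes Foxa1, Foxa2 and Sox17. In TLSMGC against 96h it was 2 in place of 5 without a minimum TPM. In TLSMG against Gastruloid, in place of 1, it was 2 with a pseudocount of 0.1 or only the compared groups, and 0 without a minimum TPM, with the GC and length correction or with the replicate block. Leaving out 1 library gave 2 to 3 called genes in Gastruloid against 96h, 2 to 3 in TLSMG against 96h, 2 to 6 in TLSMGC against 96h, 3 to 6 in TLSMGCL against 96h, 0 to 1 in TLSMG against Gastruloid, 4 to 5 in TLSMGC and in TLSMGCL against TLSMG, and 0 in TLSMGCL against TLSMGC. The cause was not tested.

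Replicate numbers did not pair the libraries: the mean correlation of deviations within a number lay between -0.072 and 0.039 over the 8 comparisons. Beyond Krt8 in TLSMG against Gastruloid, the replicate block ended the call of Cldn6 in TLSMGC against TLSMG (-0.68, adjusted p 0.0599), and no other.

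Signs changed only for differences that had not passed. With FPKM they became 0.041 for Cldn6 in Gastruloid against 96h, 0.058 for Sox17 in TLSMGCL against 96h and -0.033 for Epcam in TLSMG against Gastruloid. With median-of-ratios scaling they became 0.018 for Sox17 in TLSMGCL against 96h, -0.030 for Epcam in TLSMG against Gastruloid and 0.017 for Foxa2 in TLSMGCL against TLSMGC, which a pseudocount of 0.1 took to 0.011. The GC and length correction gave 0.033 for Foxa1 in TLSMGC against 96h, 0.092 for Sox17 and 0.048 for Foxa1 in TLSMGCL against 96h, and 0.026 for Cldn6 in TLSMG against Gastruloid. Leaving out 1 library gave, against 96h, for Sox17, -0.081 to 0.37 (TLSMG), -0.082 to 0.97 (TLSMGC), -0.45 to 0.51 (TLSMGCL), -0.30 to 0.75 in TLSMGC and -0.67 to 0.29 in TLSMGCL against TLSMG, and -0.98 to 0.073 in TLSMGCL against TLSMGC. For Foxa1 it gave -0.25 to 0.12 in TLSMGC and -0.15 to 0.061 in TLSMGCL against 96h and -0.17 to 0.21 between them, and for Foxa2 -0.36 to 0.22 in Gastruloid against 96h, -0.53 to 0.054 in TLSMG against 96h, -0.32 to 0.11 in TLSMG against Gastruloid and -0.25 to 0.28 in TLSMGCL against TLSMGC. For Cldn6 it gave -0.21 to 0.17 in Gastruloid and -0.28 to 0.11 in TLSMG against 96h and -0.23 to 0.15 between them. Epcam ran from -0.11 to 0.30 in TLSMG against Gastruloid, and in TLSMGCL against TLSMGC Epcam ran from -0.33 to 0.069, Cdh1 from -0.038 to 0.42 and Krt18 from -0.066 to 0.22. With no read counts in use, the depth behind single TPM values is unknown, which weighs most on Foxa1, Foxa2 and Sox17 at a few TPM.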
